A study of Mus musculus with 16 samples.

Results

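The insulin-like growth factor (IGF) axis was followed in cultured muscle through 10 genes, chosen by mouse symbol from a table of 48432 gene identifiers. They encode the ligands Igf1 and Igf2, the receptors Igf1r, Insr and Igf2r, the receptor adaptors Irs1 and Irs2, and the binding proteins Igfbp3, Igfbp4 and Igfbp5. RNA came from C2C12 myotubes. C2C12 is a mouse myoblast line whose cells leave the cell cycle and fuse into multinucleated muscle fibres when serum is lowered. In the EPS group, 4 libraries, the myotubes received electrical pulse stimulation, a field of 2.75 V/mm applied as pulses of 6 ms at 1 Hz (a duty cycle of 0.6%) with its polarity reversed at 0.5 Hz. In the control group, also 4 libraries, the myotubes had no stimulation. Cells of both groups were used at passages 4 to 8 and had spent 5 days in 2% horse serum, so both groups are 1 cell line in culture. The sources used here do not give how long the stimulation lasted. No label says that the libraries of a group are separate cultures, so the p-values below measure the spread between libraries, which may be technical.

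IGF-I and IGF-II are secreted peptides that bind the type 1 IGF receptor, a tyrosine kinase closely related to the insulin receptor. Both receptors phosphorylate the adaptors IRS1 and IRS2, which recruit phosphoinositide 3-kinase and so switch on AKT, protein synthesis and glucose uptake. The IGF-II receptor, also the cation-independent mannose 6-phosphate receptor, instead carries IGF-II to lysosomes, and the binding proteins hold IGFs outside the cell until proteases release them. Differentiating myoblasts make IGF-II and IGFBP-5 themselves, and IGF-II acts back on the cells that secrete it.

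RefSeq promoter windows of the 3 genes on which the results below turn are shown first. Igf1 had the most negative fold change of the 10 genes, and the adaptors Irs1 and Irs2 differed from control in opposite directions. Each window is the 250 bases before the gene's start in RefSeq on GRCm38.p6, read along the gene's strand. The windows are chr10:87860861-87861110 on the plus strand for Igf1, chr1:82291440-82291689 on the minus strand for Irs1 and chr8:11008930-11009179 on the minus strand for Irs2. The Igf1 window lies inside the span of the gene given below (chr10:87858265-87937042), after its annotated start. The bases before that annotated start were not examined. Capitals mark GGGCGG (GC box), CACGTG (an E-box bound by basic helix-loop-helix leucine zipper factors) and CAGCTG (an E-box bound by myogenic factors).
Igf1: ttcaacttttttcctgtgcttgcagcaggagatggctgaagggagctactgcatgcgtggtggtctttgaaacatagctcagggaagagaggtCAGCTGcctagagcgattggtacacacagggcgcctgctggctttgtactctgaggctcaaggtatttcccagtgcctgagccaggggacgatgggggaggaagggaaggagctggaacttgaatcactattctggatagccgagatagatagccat
Irs1: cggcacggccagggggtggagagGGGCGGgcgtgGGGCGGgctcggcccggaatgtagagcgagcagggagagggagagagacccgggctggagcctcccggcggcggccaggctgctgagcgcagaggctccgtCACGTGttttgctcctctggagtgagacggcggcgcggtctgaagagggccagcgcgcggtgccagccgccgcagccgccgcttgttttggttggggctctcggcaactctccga
Irs2: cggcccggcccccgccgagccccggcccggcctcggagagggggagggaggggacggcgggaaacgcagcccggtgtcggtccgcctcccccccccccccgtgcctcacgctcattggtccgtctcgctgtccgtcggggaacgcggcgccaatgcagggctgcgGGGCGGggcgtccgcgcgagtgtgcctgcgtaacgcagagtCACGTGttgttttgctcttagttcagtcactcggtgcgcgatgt
The Irs1 and Irs2 windows were GC-rich (72.4% and 72.8%) and held 28 and 34 CpG dinucleotides, against 52.8% and 5 in the Igf1 window. Both Irs windows held CACGTG, which begins 115 bases before the start of Irs1 (position -115) and at position -44 of Irs2. In both it sits in the same 10-base run, gtCACGTGtt, which occurs in 23 of 32851 promoter windows of this length (0.07%). The Irs1 and Irs2 windows share 1 more run of that length, tgttttgctc, which overlaps the first and occurs in 21 windows (0.0639%). The CACGTG motif was searched after these sequences were seen. Both runs were picked as the longest that the Irs1 and Irs2 windows share. Their presence in both windows was thus fixed by the choice, and their shares of all windows carry no test.

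Across the windows of the other members the matches were few. RefSeq windows were found for 9 of the 10 genes, all but Insr, 12 windows in all because Igf2 has several starts, and each was searched on both strands. CACGTG is present in 6.02% of all windows, and among the 10 genes it was also found in Igf2r, where it occurs 2 times. GGGCGG, present in 32.7% of all windows, was found in Irs1, Irs2, Igf1r, Igf2r and Igf2. CAGCTG (13.0% of all windows) was found in Igf1 at position -157, and TATAAA, the TATA box (12.4%), in Igfbp4 at position -28. The FoxO element GTAAACA (3.17%), the cAMP response element TGACGTCA (1.55%) and the ATF4 and CHOP element TGATGCAA (0.791%) had no match in these 12 windows. A match is a description of the letters and does not show that a factor binds.

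Levels between genes are compared in FPKM, the authors' fragments per kilobase of transcript and M (10 to the power of 6) fragments, because only these account for transcript length. Igfbp5 was the most abundant of the 10 genes in both groups, at 144 ± 62.3 FPKM in EPS and 224 ± 55.5 FPKM in control (SD, n = 4 each). Igf2 followed at 48.1 ± 14.5 FPKM in EPS and 67.8 ± 42.2 FPKM in control (48.0 ± 18.1 FPKM without control replicate 2, n = 3), and Igf2r at 35.2 ± 10.2 FPKM in EPS and 36.9 ± 4.51 FPKM in control. Igf2 exceeded Igf2r in 3 of 4 libraries of each group, and their ranges overlapped. Irs1 was next at 17.8 ± 2.51 FPKM in EPS and 28.4 ± 4.23 FPKM in control, below Igf2r without overlap of the ranges in either group.

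The lower part of this order differed between the groups. In EPS it ran Insr (12.9 ± 4.62 FPKM), Irs2 (12.6 ± 8.47 FPKM), Igf1r (11.1 ± 4.71 FPKM), Igfbp4 (5.30 ± 3.17 FPKM), Igfbp3 (1.72 ± 0.718 FPKM) and Igf1 (0.963 ± 0.921 FPKM). In control it ran Igf1r (8.68 ± 1.39 FPKM), Insr (7.70 ± 0.956 FPKM), Igfbp4 (5.10 ± 2.67 FPKM), Igf1 (3.49 ± 0.723 FPKM), Irs2 (3.20 ± 1.11 FPKM) and Igfbp3 (2.70 ± 2.12 FPKM). Neighbours in these orders had overlapping ranges, except that Irs1 lay wholly above Igf1r and Insr wholly above Igfbp4 in control. Without control replicate 2 the last 3 in control were Igfbp3 (3.59 ± 1.38 FPKM), Igf1 (3.55 ± 0.875 FPKM) and Irs2 (3.53 ± 1.09 FPKM, n = 3), so their order there rests on the shallow library. Igf1 had the lowest mean of the 10 in EPS, with a range that overlapped that of Igfbp3.

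**Figure D1:**
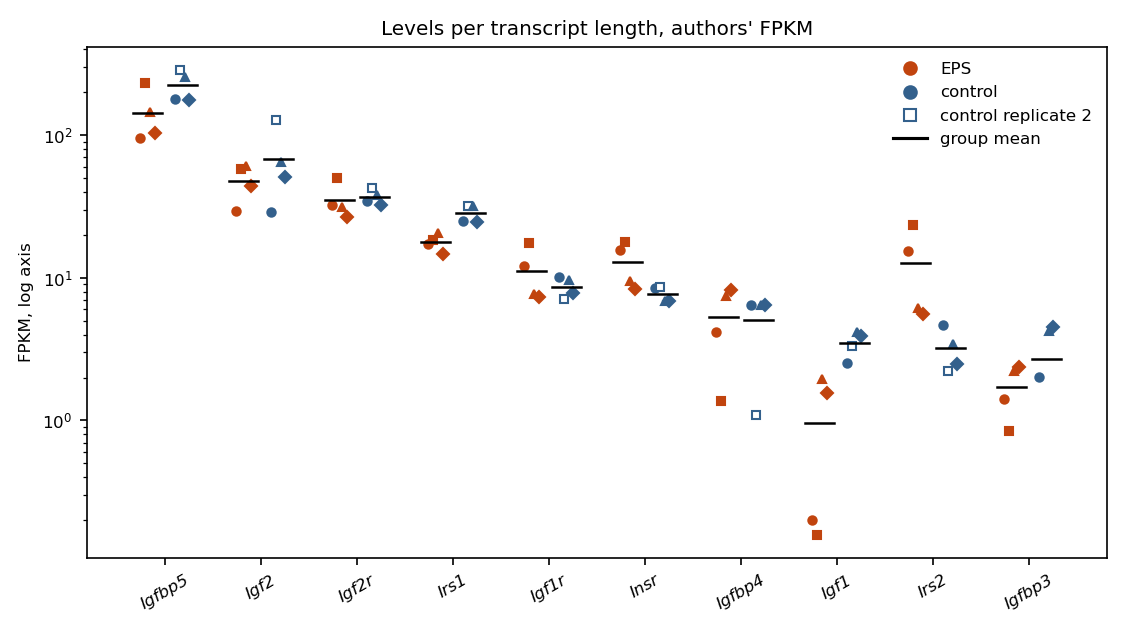
Authors' FPKM of each gene on a log axis, with 1 point per library (EPS left in red, control right in blue, the shallow control replicate 2 open) and a line at the group mean. Igfbp5 averaged 144 FPKM in EPS and 224 FPKM in control, above every other gene; Igfbp3 is listed at 0 in control replicate 2 and has no point there.

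EPS libraries held 14.74 to 20.67 M fragments and control libraries 1, 3 and 4 held 12.63 to 20.73 M, but control replicate 2 held only 354492 fragments. The upper limit behind a count of 0, set at 3 fragments, is 8.52 CPM in that library and 0.138 to 0.241 CPM in the others. CPM stands for fragments per M fragments of the library after scaling by TMM. In control replicate 2, Igf1 and Igfbp4 rest on 1 fragment each, Irs2 on 4 and Igfbp3 on 0. On principal components of log2 CPM this library stood apart on the first, and EPS replicates 1 and 2 stood apart from the other libraries on the second. Markers of the myotube label were abundant (Myh3, embryonic myosin, averaged 5115 CPM in EPS and 7252 CPM in control), while Emcn, Adgre1, Alb, Serpina1a, Ins1, Gcg and Sst, markers of endothelium, macrophages, liver and islet, were at 0 in every library. Other markers of these cell types were not at 0, with the endothelial Pecam1 at 10.8 CPM and the macrophage gene Cd68 at 27.0 CPM in EPS replicate 2.

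EPS was compared with control by edgeR's quasi-likelihood test, with p adjusted over the 13987 genes tested, and all 10 IGF genes passed the filter on low counts. At an adjusted p under 0.05, 1 of the 10, Irs1, was lower in EPS and 0 were higher, with 5 of 10 at an unadjusted p under 0.05 and 1, Irs2, called higher by DESeq2. Among all genes tested 3.06% were called, 2.30% higher and 0.758% lower in EPS. An unadjusted p under 0.05 was met by 2590 of the 13987 genes tested. The median log2 fold change of the 10 genes was -0.45 and that of all genes tested 0.01, and 3 of the 10 were positive.

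EPS and control libraries with the same replicate number deviated from their group means together. The comparison was therefore also fitted with the number as a block, that is, within pairs. This pairing is inferred from these data and is not in the labels. EPS replicate 3 with control replicate 4 (correlation 0.253) and EPS replicate 4 with control replicate 3 (0.231) deviated together more than pair 2 did (0.214). With the block 6 of the 10 genes were called, Irs2 and Insr higher and Irs1, Igf1, Igfbp5 and Igfbp3 lower in EPS. The block called 12.1% of all genes tested, 7.31% higher and 4.78% lower. The same 6 genes were called with the block when pair 2, which holds the shallow control library, was left out. Groups did not overlap in CPM for 2 of the 10 genes, Irs1 and Irs2, and this held for 14.1% of all genes tested. Without control replicate 2 it held for 3 of the 10, Igf1 being added, and for 24.8% of all genes.

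**Figure D2:**
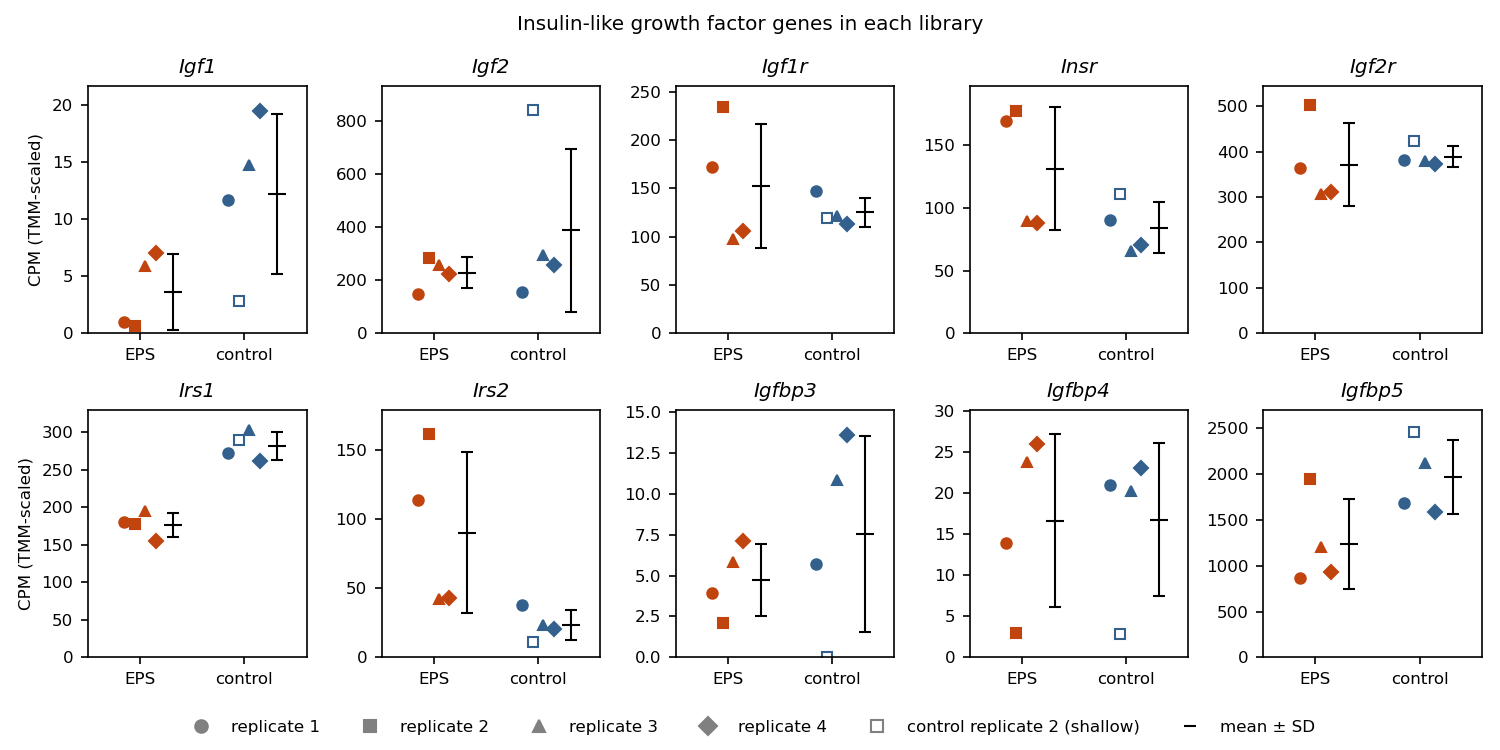
CPM of the 10 genes in each library (EPS left, control right, marker shape by replicate number, control replicate 2 open), with the mean ± SD of 4 libraries as a black bar. Irs1 lay between 155 and 195 CPM in EPS and between 262 and 304 CPM in control, and Irs2 between 42.0 and 161 CPM in EPS and between 11.4 and 37.6 CPM in control.

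The ligand Igf1 (ENSMUSG00000020053, chr10:87858265-87937042, plus strand of GRCm38), which encodes IGF-I, was lower in EPS within pairs 1, 3 and 4. In pair 2 Igf1 was also lower, but against 1 control fragment, which gives no clear direction. It had 0.978, 0.642, 5.90 and 7.02 CPM in EPS libraries 1 to 4, against 11.7, 2.84, 14.8 and 19.5 CPM in control libraries 1 to 4. The 4 EPS libraries lay below the 3 deep control libraries, and the shallow control library lay among them on 1 fragment, whose exact Poisson 95% interval runs from 0.0719 to 15.8 CPM. By the authors' FPKM that library, on the same fragment, was at 3.33, above the EPS libraries (0.158 to 1.95), so the measures differ there. The means were 3.63 ± 3.30 CPM in EPS and 12.2 ± 7.02 CPM in control (SD, n = 4 each), or 15.3 ± 3.93 CPM in control without replicate 2 (n = 3).

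The fitted log2 fold change of Igf1 was -1.93 (SE 0.66), and over all libraries it did not pass the test (adjusted p = 0.149). With the block it was called lower at -1.92 (SE 0.34, adjusted p = 0.00568), and without pair 2 at -1.91 (SE 0.34, adjusted p = 0.00697). Over all alternatives tried, its adjusted p ran from 0.00117 to 0.361. EPS libraries 1 and 2 had far less Igf1 than EPS libraries 3 and 4, on 19 and 8 fragments. In a fit of all 8 libraries with a pooled spread, replicates 1 and 2 gave -3.66 (SE 0.42) on the log2 scale. Replicates 3 and 4 gave -1.41 (SE 0.31) in the same fit. The difference between the sets, -2.25 (SE 0.52), did not pass its test (adjusted p = 0.383), a test that 0 of the 13987 genes passed and that 1483 met at an unadjusted p under 0.05.

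Igf2 (ENSMUSG00000048583, chr7:142650766-142666816, minus strand) encodes IGF-II and is imprinted, expressed from the paternal copy. It had 148, 284, 257 and 225 CPM in EPS libraries 1 to 4, against 157, 841, 297 and 257 CPM in control libraries 1 to 4. Each EPS library was below the control library of its number, by -0.08, -1.57, -0.21 and -0.19 on the log2 scale, but the groups overlapped and the shallow control library was the highest of the 8. The log2 fold change was -0.72 (SE 0.45, 95% interval -1.81 to 0.38) and did not pass the test (adjusted p = 0.432), nor without control replicate 2, where it was -0.06 (adjusted p = 0.917). The block did not call it either (-0.49, SE 0.23, adjusted p = 0.190), nor did the block without pair 2 (-0.17, SE 0.09, adjusted p = 0.232).

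Set against each other within a library, the ligands were unequal. The FPKM of Igf2 over that of Igf1 was 147, 369, 31.1 and 28.7 in EPS libraries 1 to 4, against 11.3, 38.2, 15.5 and 12.9 in control libraries 1 to 4. Each EPS library had a higher ratio than the 3 deep control libraries, and the shallow control library, whose ratio rests on 1 Igf1 fragment, lay among the EPS libraries. The locus of Igf2 holds other annotated transcripts. Igf2os, on the opposite strand, shares 98 exon bases with Igf2 and had 0 to 13 fragments per library, which cannot be told apart from Igf2 if strand was not used in counting. Gm49394, on the same strand, shares 3596 exon bases with Igf2 and was not analysed here.

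Among the receptors, Insr (ENSMUSG00000005534, chr8:3122061-3279617, minus strand), which encodes the insulin receptor, was higher in EPS within each pair. It had 170, 177, 89.7 and 88.0 CPM in EPS libraries 1 to 4, against 90.1, 111, 65.6 and 70.7 CPM in control libraries 1 to 4. EPS libraries 1 and 2 lay above all control libraries, whereas EPS libraries 3 and 4 were above control libraries 3 and 4 only. The log2 fold change was 0.69 (SE 0.28), a fold of 1.61, and did not pass the test (adjusted p = 0.219). With the block it was called higher at 0.58 (SE 0.14, adjusted p = 0.0241), and without pair 2 at 0.55 (SE 0.13, adjusted p = 0.0192). Over all alternatives its adjusted p ran from 0.0163 to 0.519. The block call of Insr ended when the length and GC offset described below was added to the block (0.42, SE 0.15, adjusted p = 0.117), and the offset without the block gave 0.45.

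Igf1r (ENSMUSG00000005533, chr7:67952827-68233668, plus strand), the gene of the type 1 IGF receptor, had 172, 234, 97.2 and 106 CPM in EPS libraries 1 to 4, against 147, 119, 122 and 113 CPM in control libraries 1 to 4. EPS libraries 1 and 2 lay above every control library and EPS libraries 3 and 4 below every control library. Over all libraries its log2 fold change was 0.28 (SE 0.27, 95% interval -0.39 to 0.94, adjusted p = 0.635). It was 0.56 (SE 0.21) within replicates 1 and 2 and -0.21 (SE 0.20) within replicates 3 and 4, and it was -0.02 without EPS replicate 2. No direction can therefore be given for Igf1r over these libraries.

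The balance of the 2 kinase receptors was also read within each library. The FPKM of Igf1r over that of Insr was 0.765, 0.976, 0.801 and 0.879 in EPS libraries 1 to 4, against 1.19, 0.834, 1.39 and 1.15 in control libraries 1 to 4. Insr was thus the higher of the 2 genes in all EPS libraries, and Igf1r the higher in the 3 deep control libraries. In the shallow control library, with 42 fragments of Igf1r and 39 of Insr, the ratio lay within the EPS range.

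Igf2r (ENSMUSG00000023830, chr17:12682406-12769664, minus strand), the gene of the receptor that clears IGF-II, had 364, 502, 307 and 311 CPM in EPS libraries 1 to 4, against 381, 423, 378 and 373 CPM in control libraries 1 to 4. EPS replicate 2 was the highest library and the other EPS libraries lay below the control libraries. Igf2r had a log2 fold change of -0.06 (SE 0.19, 95% interval -0.53 to 0.40), and was called neither in this fit (adjusted p = 0.895) nor with the block (-0.10, SE 0.14, adjusted p = 0.674). Airn, the antisense transcript of this locus that silences the paternal Igf2r copy in mouse, had 1 to 51 fragments per library and shares no exon bases with Igf2r.

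The adaptors held both the call of the main test and the gene with the most positive fold change. Irs1 (ENSMUSG00000055980, chr1:82233101-82291416, minus strand) had 180, 177, 195 and 155 CPM in EPS libraries 1 to 4, against 272, 290, 304 and 262 CPM in control libraries 1 to 4. Each EPS library lay below each control library, and the SDs were small, at 177 ± 16.2 CPM in EPS and 282 ± 18.5 CPM in control (n = 4 each). The fitted difference was -0.67 on the log2 scale (SE 0.14, 95% interval -1.03 to -0.32), so Irs1 in EPS was at 0.628 of its control level (adjusted p = 0.0367).

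The Irs1 difference was close in size in all pairs and in both replicate sets. The pairs gave -0.60, -0.71, -0.64 and -0.75 on the log2 scale, and the sets gave -0.65 (SE 0.19) for replicates 1 and 2 and -0.69 (SE 0.18) for replicates 3 and 4. With the block it was -0.67 (SE 0.12, adjusted p = 0.00638). The call was nonetheless lost with fewer libraries, with an adjusted p of 0.121 without EPS replicate 1, 0.0714 without EPS replicate 4, and 0.109, 0.145 and 0.0977 without control replicates 1, 3 and 4. In these fits the log2 fold change lay between -0.72 and -0.63. The call was also lost in limma on the authors' FPKM and within either replicate set, with the spread pooled over both sets. Over all alternatives the adjusted p ran from 0.000518 to 0.145. Gm9747, annotated on the opposite strand over 2822 exon bases of Irs1, had 0 fragments in every library.

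Irs2 (ENSMUSG00000038894, chr8:10984681-11008458, minus strand) had 114, 161, 42.0 and 43.0 CPM in EPS libraries 1 to 4, against 37.6, 11.4, 23.5 and 20.3 CPM in control libraries 1 to 4. Each EPS library lay above each control library, and EPS libraries 1 and 2 lay well above EPS libraries 3 and 4. The value of control replicate 2 rests on 4 fragments, with an exact Poisson interval of 3.10 to 29.1 CPM. The means were 90.0 ± 58.1 CPM in EPS and 23.2 ± 10.9 CPM in control (SD, n = 4 each). The antisense transcript 9530052E02Rik shares 162 exon bases with Irs2 and had 0 to 1 fragments per library.

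The fitted log2 fold change of Irs2 was 1.81 (SE 0.46), a fold of 3.52, and over all libraries it missed the threshold (adjusted p = 0.0662). With the block Irs2 was called higher at 1.38 (SE 0.25, adjusted p = 0.00618), and without pair 2 at 1.18 (SE 0.15, adjusted p = 0.00146). DESeq2 also called it (1.89, SE 0.46, adjusted p = 0.00179), as did the main test without EPS replicate 3 or 4 (adjusted p = 0.0308 and 0.0303), and over all alternatives the adjusted p ran from 0.00146 to 0.207. With the spread pooled over both sets, replicates 1 and 2 gave 2.06 (SE 0.31), and replicates 3 and 4 gave 0.96 (SE 0.27). The difference between the sets, 1.10 (SE 0.40), did not pass its test (adjusted p = 0.412).

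The opposite directions of the adaptors met in their ratio. The FPKM of Irs1 over that of Irs2 was 1.13, 0.787, 3.40 and 2.62 in EPS libraries 1 to 4, against 5.34, 14.5, 9.38 and 9.81 in control libraries 1 to 4. The groups did not overlap, and in EPS replicate 2 Irs2 exceeded Irs1. The ratio is given as a description, since it was formed with the values of both genes in view.

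**Figure D3:**
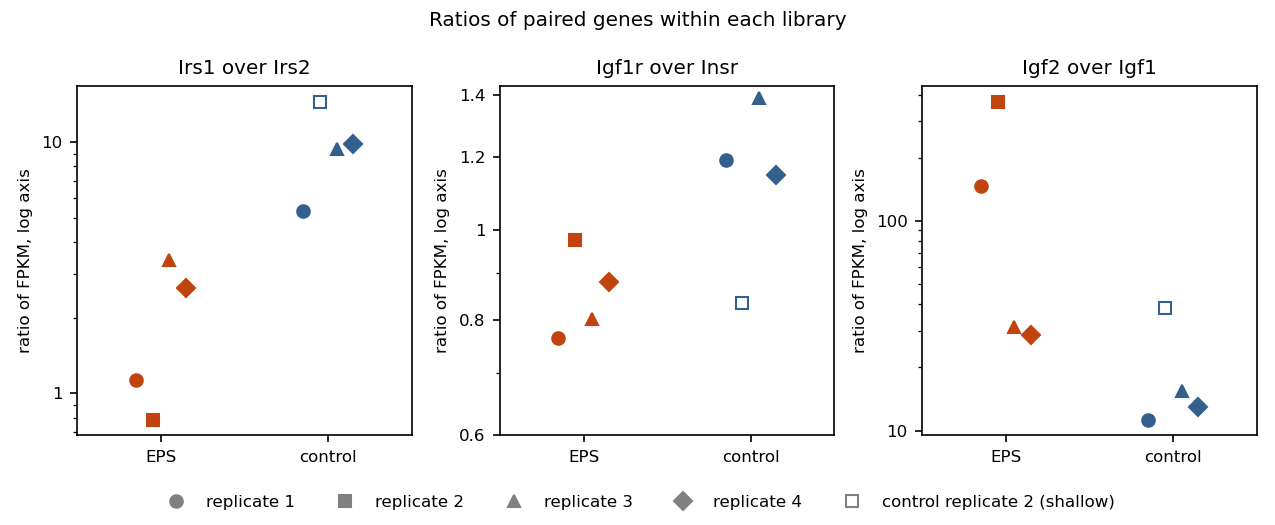
FPKM ratios within each library on log axes, for Irs1 over Irs2, Igf1r over Insr and Igf2 over Igf1 (EPS left, control right, marker shape by replicate number, control replicate 2 open). For Irs1 over Irs2 the EPS libraries lay between 0.787 and 3.40 and the control libraries between 5.34 and 14.5; in the other panels the shallow control library fell among the EPS libraries.

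Of the binding proteins, Igfbp5 (ENSMUSG00000026185, chr1:72857932-72874884, minus strand), the most abundant of the 3 by FPKM, was lower in EPS within all 4 pairs. It had 864, 1941, 1199 and 933 CPM in EPS libraries 1 to 4, against 1686, 2458, 2115 and 1590 CPM in control libraries 1 to 4. EPS replicate 2 reached into the control range, and the other EPS libraries lay below all control libraries. The log2 fold change was -0.67 (SE 0.28) and did not pass the test (adjusted p = 0.233), except without EPS replicate 2, where it was -0.98 (SE 0.22, adjusted p = 0.0403). With the block Igfbp5 was called lower at -0.73 (SE 0.15, adjusted p = 0.0106), and without pair 2 at -0.86 (SE 0.10, adjusted p = 0.00133). Over all alternatives its adjusted p ran from 0.00133 to 0.506.

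Igfbp3 (ENSMUSG00000020427, chr11:7206086-7213923, minus strand), which encodes the main IGF carrier of serum, had 3.91, 2.09, 5.80 and 7.11 CPM in EPS libraries 1 to 4, against 5.69, 0, 10.9 and 13.6 CPM in control libraries 1 to 4. In pairs 1, 3 and 4 the EPS library was the lower, by -0.53, -0.89 and -0.92 on the log2 scale. Pair 2 gives no comparison, since a count of 0 in control replicate 2 allows up to 8.52 CPM. Over all libraries Igfbp3 had a log2 fold change of -0.95 (SE 0.47, adjusted p = 0.315). With the block it was called lower at -0.77 (SE 0.22, adjusted p = 0.0498), close to the threshold, and without pair 2 at -0.82 (SE 0.17, adjusted p = 0.0137). Over all alternatives the adjusted p ran from 0.0137 to 0.924.

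Igfbp4 (ENSMUSG00000017493, chr11:99041244-99054392, plus strand), a binding protein cut by the protease PAPP-A, had 14.0, 2.97, 23.9 and 26.0 CPM in EPS libraries 1 to 4, against 21.1, 2.84, 20.3 and 23.0 CPM in control libraries 1 to 4. Replicate 2 was the lowest of both groups, on 37 fragments in EPS and 1 in control. The means were 16.7 ± 10.5 CPM in EPS and 16.8 ± 9.39 CPM in control (SD, n = 4 each). The log2 fold change was -0.23 (SE 0.53, 95% interval -1.53 to 1.08, adjusted p = 0.863) and -0.06 (SE 0.18, adjusted p = 0.885) with the block. The interval is wide, so a change of Igfbp4 of up to 2-fold in either direction was not resolved by the test over all libraries.

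As a share of the summed FPKM of Igfbp3, Igfbp4 and Igfbp5, Igfbp5 made up 94.5%, 99.1%, 93.7% and 90.8% in EPS libraries 1 to 4, against 95.5%, 99.6%, 96.0% and 94.1% in control libraries 1 to 4. The groups overlapped. In pairs 1, 3 and 4 the EPS library had the smaller share, and in pair 2 the control share, on 0 fragments of Igfbp3 and 1 of Igfbp4, gives no comparison.

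**Figure D4:**
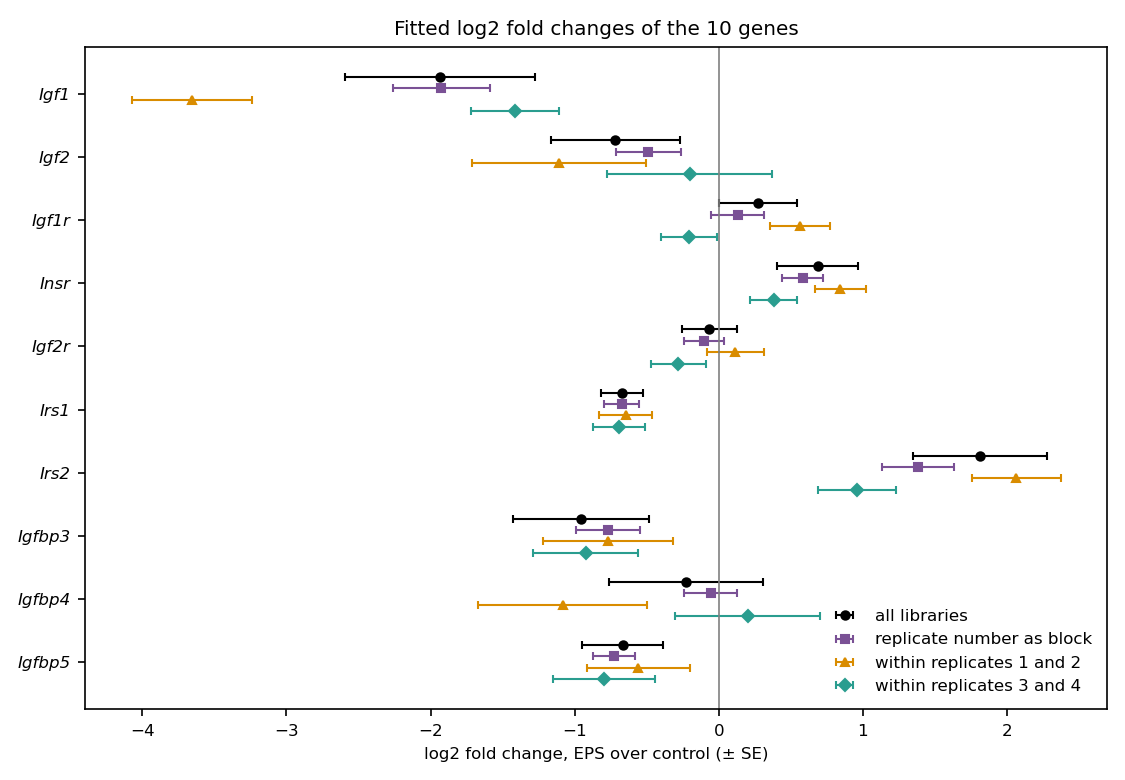
Fitted log2 fold changes (EPS over control) with SE bars for the 10 genes, from all libraries (black), with the replicate number as a block (purple), within replicates 1 and 2 (orange) and within replicates 3 and 4 (green). Irs1 stayed between -0.69 and -0.65 in these 4 estimates, whereas Igf1 ran from -3.66 to -1.41 and Igf1r changed sign between the sets.

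Several properties of the libraries moved with these differences. The 9 tested myotube markers all had negative fold changes (median -0.54, 0 called by edgeR). Of these 6 had an unadjusted p under 0.05, beside 2590 of the 13987 genes tested. The block called 6 of the 9 lower, beside 4.78% of all genes. Their summed level was 14135 to 19113 CPM in EPS libraries and 23209 to 25927 CPM in control libraries. The 4 tested myoblast markers were also all negative (median -0.58, 0 called by edgeR, 1 at an unadjusted p under 0.05), at a summed 504 to 566 CPM in EPS and 580 to 876 CPM in control, and the block called 1 of them, Myod1, lower (-1.19, adjusted p = 0.00262). The 5 markers of dividing cells were negative too (median -0.41, 0 called by edgeR, 0 at an unadjusted p under 0.05, 0 with the block), at 282 to 630 CPM in EPS and 362 to 766 CPM in control. The fibroblast markers summed to 17.8 to 23.6 CPM in EPS and 11.2 to 17.5 CPM in the 3 deep control libraries, mostly from Pdgfra, with Lum at or near 0. Macrophage markers summed to 2.90 to 29.8 CPM in EPS and 2.87 to 3.90 CPM in the deep control libraries, and endothelial markers to 1.14 to 14.8 CPM in EPS and 0.921 to 1.26 CPM in the deep control libraries, both highest in EPS replicate 2. In the shallow control library these 3 sums were 5.68, 8.52 and 0 CPM. Pdgfra was called higher with the block (0.89, adjusted p = 0.0141), which called 7.31% of all genes higher, but not by edgeR without it (adjusted p = 0.0542). The other tested fibroblast marker, Pi16, was negative (-0.55) and called by neither. The macrophage gene Itgam was called lower with the block (-1.76, adjusted p = 0.0426), whereas Cd68 was positive (2.44) and called by neither. The part of these shifts in the results was not tested, and in bulk RNA fewer cells of a type and less RNA per cell cannot be told apart.

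Transcript length also moved with the libraries. Deviations of log2 CPM from the mean correlated across genes with log2 exon length at 0.123, 0.175, -0.272 and -0.244 in EPS libraries 1 to 4, against -0.036, 0.13, -0.178 and -0.181 in control libraries 1 to 4. An offset for length and GC content left Irs1 called (-0.89, adjusted p = 0.0350) and Irs2 at 1.78, while Igf2 was at -1.34 and Igf1r at 0.03. With that offset the calls over all genes were 257 higher and 215 lower, against 322 and 106 without it.

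Other genes of the insulin and IGF pathway were read from 5 lists, in which 63 of 78 listed genes were tested. Of these 2 rose, 0 fell and 61 did not pass, with a median log2 fold change of 0.07, beside 2.30% higher and 0.758% lower over all genes tested. An unadjusted p under 0.05 was met by 19 of the 63, beside 2590 of the 13987 genes tested. With the block 8 of the 63 were higher and 5 lower, beside 7.31% and 4.78% over all genes. With the length and GC offset added to the block, 5 were higher and 6 lower, and DESeq2 called 3 higher and 2 lower, adding Pik3cb, Akt2 and Foxo6. Both genes called by the main test are brakes on the pathway, of which 19 were tested.

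Trib3, a pseudokinase that can bind AKT, rose to 40.1, 62.5, 20.5 and 21.2 CPM in EPS libraries 1 to 4, against 3.47, 0, 3.94 and 3.78 CPM in control libraries 1 to 4. The groups did not overlap, with a log2 fold change of 3.31 (SE 0.42, adjusted p = 0.00337). Fbxo40, a muscle ubiquitin ligase subunit known to direct IRS1 protein to degradation, rose to 285, 152, 111 and 122 CPM in EPS libraries 1 to 4, against 52.7, 34.1, 25.5 and 22.7 CPM in control libraries 1 to 4. Its groups did not overlap either, at a log2 fold change of 2.31 (SE 0.37, adjusted p = 0.00960), and its call was lost without control replicate 3 (2.16, adjusted p = 0.0566). Trib3 was no longer called in limma on log2(FPKM + 0.1) (4.18, adjusted p = 0.0920), where control replicate 2 is at 0. The 19 brakes had a median of 0.03, with 8 at an unadjusted p under 0.05, beside 2590 of the 13987 genes tested. With the block 4 of the 19 were higher, beside 7.31% of all genes. They were Trib3, Fbxo40, Socs1 (1.31, adjusted p = 0.0312) and Eif4ebp1 (0.57, adjusted p = 0.0298). Eif4ebp1 lost this call with the length and GC offset added (0.39, adjusted p = 0.222). The block called 1 brake lower, Socs2 (-0.67, adjusted p = 0.0183), which like Socs1 encodes a suppressor of cytokine signalling.

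None of the other 4 lists had a gene called by the main test. Single genes passed in other unblocked edgeR fits, among them Pik3cb without EPS replicate 3 or 4 (adjusted p = 0.0472 and 0.0453), Foxo6 with RLE scaling (0.0458), and Cited2, Akt2 and Socs2, the last a brake, without control replicate 2 (0.0420, 0.0349 and 0.0453). Among 8 genes of IGF binding and availability (median 0.11, 2 at an unadjusted p under 0.05) Igfbp7, which had the highest CPM averaged over both groups, was at 133 ± 46.2 CPM in EPS and 175 ± 45.2 CPM in control. With the block 2 were higher, Igfbp6 (0.64, adjusted p = 0.0473, close to the threshold) and Igf2bp2 (0.71, adjusted p = 0.0216), which is not one of the Igfbp genes. Igf2bp2 lost its call with the offset added to the block (0.55, adjusted p = 0.0506), and without the block it was at 1.00 over all libraries and at 0.50 without EPS replicate 2. In this list 1 was lower with the block, Pappa, the protease that cuts IGFBP-4 (-1.19, adjusted p = 0.00631). Among 22 adaptors and kinases (median 0.03, 5 at an unadjusted p under 0.05) Akt1, likewise the highest in CPM averaged over both groups, was at 213 ± 37.4 CPM in EPS and 279 ± 33.1 CPM in control. With the block Pik3cb was higher (0.92, adjusted p = 0.00754) and Akt2 lower (-0.58, adjusted p = 0.0221). Genes called with the block alone are named here after their values were seen.

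Among 9 transcription factors and FoxO targets (median 0.12, 4 at an unadjusted p under 0.05) Cited2, chosen by the same average, was at 278 ± 36.2 CPM in EPS and 190 ± 56.6 CPM in control. It was called higher with the block (0.60, adjusted p = 0.0193), but not with the length and GC offset added to it (0.37, adjusted p = 0.362). The offset without the block gave 0.20. Foxo6 was called lower with the block (-0.83, adjusted p = 0.0120), and not with the offset added (-1.04, adjusted p = 0.0525). Among 5 imprinted and antisense neighbours (median -0.04, 0 at an unadjusted p under 0.05) H19, the noncoding RNA imprinted opposite to Igf2, was at 8535 ± 3161 CPM in EPS and 12432 ± 3034 CPM in control. Its log2 fold change was -0.54 (adjusted p = 0.411), and with the block H19 was called lower at -0.61 (adjusted p = 0.0350).

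**Figure D5:**
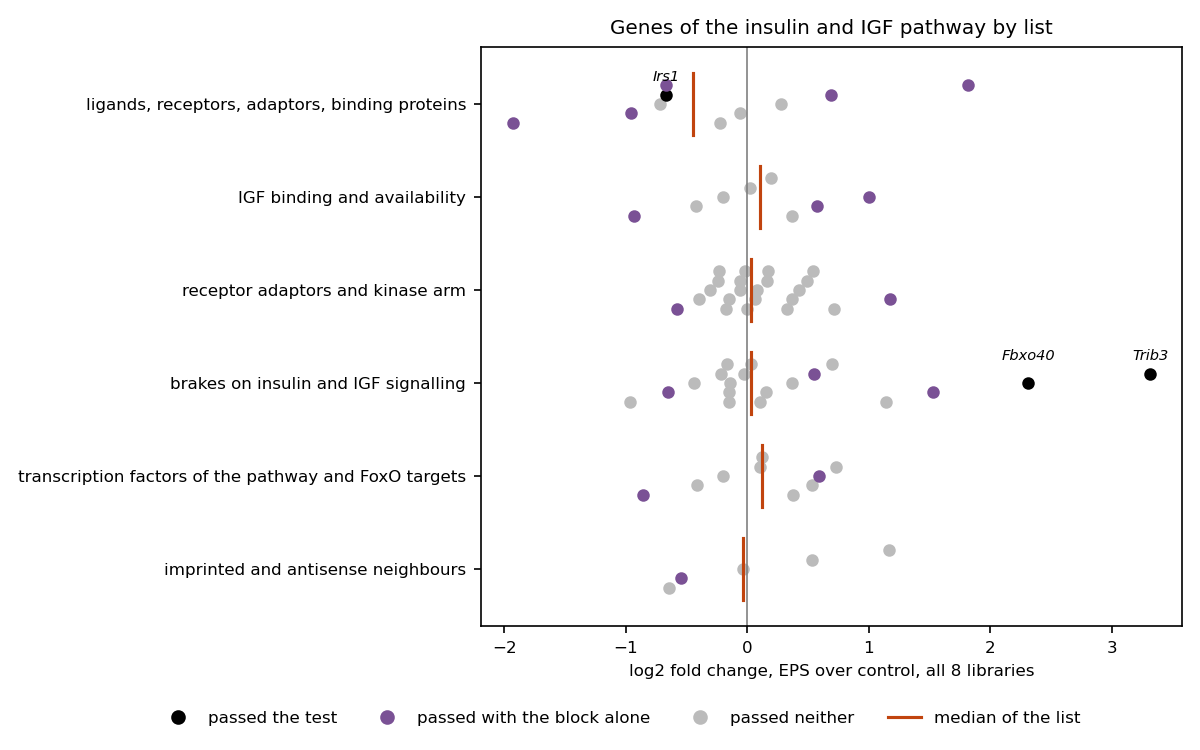
Log2 fold change (EPS over control, all 8 libraries) of the 10 IGF genes in the top row and of the 63 tested genes of the 5 pathway lists below, with 1 point per gene, black where the main test called it, purple where only the fit with the block did, and an orange line at the median of each list. Irs1 at -0.67, Fbxo40 at 2.31 and Trib3 at 3.31 are the black points.

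For Irs1, the gene with the smallest p of the 10, the 3 genes with the most similar profile were sought among 10150 candidates over the 7 deep libraries. They were Zfp292 (Pearson r = 0.99), Pcdhgc3 (r = 0.98) and Dnal1 (r = 0.97), a description that carries no test because the libraries share groups and replicate sets. Dnal1 was itself lower in EPS (log2 fold change -0.82, SE 0.17, adjusted p = 0.0348), at 37.1 CPM in EPS and 68.6 CPM in control on average. Zfp292 and Pcdhgc3 did not pass the test, with log2 fold changes of -0.28 and -0.15.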

How the data were processed

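Total RNA of EPS and control C2C12 myotubes was sequenced after a strand-specific library preparation, per the labels' protocols. Each of the 8 libraries was run on 2 lanes, which gives the 16 GEO samples. STAR 2.5.1, Cufflinks, Cuffdiff 2.2.1 and the build mm10 are named in the submitters' processing notes. The deposited table, per the file headers, gives estimated counts (fragments per gene, unscaled) and the authors' FPKM for each gene and library. The sources used here do not give the annotation release or the strand setting of the counting. Estimated counts were rounded (93.3% of those above 0 were already whole). The 46 genes marked in the table as having too many fragments entered neither library sizes nor tests. Symbols and positions came from a GENCODE annotation of GRCm38 (mm10), which matched 48051 identifiers.

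Genes were filtered with filterByExpr (minimum count 10, minimum total 15), scaled by TMM and compared by the quasi-likelihood test of edgeR 4.0.16 (with limma 3.58.1, in R 4.3.3) without covariates, using all 8 libraries, and p-values were adjusted by Benjamini-Hochberg with a threshold of 0.05. CPM values use TMM-scaled library sizes. SEs are approximate, computed from fold changes and F statistics, and give the 95% intervals. The test was run on simulated counts first. The exact Poisson intervals and the limits behind a count of 0 cover counting error only. DESeq2 1.42.0, limma on log2(FPKM + 0.1) and log2(FPKM + 1), other scalings and filters, left-out libraries, replicate sets and a length and GC offset (mgcv 1.9.3) were alternatives.

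EPS and control share replicate numbers 1 to 4, whose meaning the labels do not give. Deviations from the group mean correlated across genes at 0.300, 0.214, 0.286 and 0.297 in same-numbered pairs and at -0.289 to 0.253 in others, so the numbers were taken to pair the libraries. The sets of replicates 1 and 2 and of 3 and 4 come from the data and are no labelled batch. Both sets were read from the same fit of all 8 libraries, so their SEs and p-values use a spread pooled over both. The 10 genes, the lists and the tests were chosen with earlier results of these data known. Genes named by rule are the 10, the called genes of each list or else its most abundant gene, and the 3 most similar to Irs1. Other genes of the lists, called with the block but not by the main test, were named after their values were seen.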

Additional observations from a re-analysis of the deposited data

Results flagged for a closer look

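In groups of 4 libraries, 1 library can stand apart by chance in about 1 of 20 groups, and control replicate 2, with 354492 fragments, did so for 2 of the 10 genes. Igf2r was at 423 CPM there, on 149 fragments, while the other control libraries lay between 373 and 381 CPM; its exact Poisson interval of 358 to 497 CPM covers them. Igfbp4 was at 2.84 CPM there, on 1 fragment, while the other control libraries lay between 20.3 and 23.0 CPM, outside its exact Poisson interval of 0.0719 to 15.8 CPM. Igf1r differed from control in opposite directions in the replicate sets, with both EPS libraries above control in replicates 1 and 2 and both below it in replicates 3 and 4. The difference in log2 fold change between the sets was 0.77 (SE 0.28), which did not pass its test (adjusted p = 0.412).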

How the results depend on the processing

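Counts of called genes moved with the processing. Members called higher were 0 in the main test and 1 with library size alone, DESeq2, no filter or the block with the length and GC offset. They were 2 with the replicate block, the block without pair 2 (chosen after seeing the data) or within replicates 1 and 2, and 0 to 1 with 1 library left out. Members called lower were 1 in the main test, 4 with each of the 3 block fits, 0 in both limma fits and within replicates 3 and 4, and 0 to 2 with 1 library left out. Pathway genes called higher were 2 in the main test, 8 with the block and with the block without pair 2, 5 with the block and offset, 9 within replicates 1 and 2, 1 in limma on log2(FPKM + 0.1), and 1 to 3 with 1 library left out. Those called lower were 0 in the main test and 5, 10 and 6 with these block fits. They were 2 with DESeq2, 1 with RLE scaling, no filter, the CPM filter, genes marked for too many fragments kept, or replicates 1 and 2, and 0 to 2 with 1 library left out. Of all genes, 322 were higher and 106 lower in the main test, and 633 were higher and 294 lower with DESeq2. In limma these counts were 94 and 29 (pseudocount 0.1) or 130 and 48 (pseudocount 1). With the spread pooled over both sets, replicates 1 and 2 gave 1191 higher and 575 lower, and replicates 3 and 4 gave 153 higher and 41 lower. The block gave 1023 and 668, 1290 and 1167 without pair 2, and 618 and 677 with the offset. Lower genes were 162 with no filter and 215 with the offset alone. With 1 library left out, higher genes were 92 to 427 and lower genes 22 to 167.

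Among the 10 genes, signs turned for Igf1r, Igf2r, Igfbp3 and Igfbp4, none of them called in the setting concerned. Igf1r was at -0.0716 with the block without pair 2, -0.0254 with the block and offset, -0.21 within replicates 3 and 4 and -0.0185 to 0.42 with 1 library left out. Igf2r was at 0.11 within replicates 1 and 2. Igfbp3 was at 0.24 in limma on log2(FPKM + 0.1), where control replicate 2 is listed at 0. Igfbp4 was at 0.0571 and 0.0352 in limma (pseudocount 0.1 and 1), 0.20 within replicates 3 and 4 and -0.53 to 0.0687 with 1 library left out. Igf1, Igf2, Igfbp5, Insr, Irs1 and Irs2 kept their sign under all 22 alternatives. The causes were not tested. In control replicate 2, a count of 0 can stand for a level of up to 8.52 CPM.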
